A study of Mus musculus with 16 samples.

Results

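Evc, Evc2 and Dzip1l encode proteins of the primary cilium and were followed through LSK cells of 4 mouse genotypes. LSK cells are bone marrow cells that lack lineage markers and carry c-Kit and Sca-1, a fraction that holds haematopoietic stem and early progenitor cells. The members were taken by symbol, as 3 of the 55291 genes counted in 16 libraries, because both groups with the Asxl1 transgene held far more of their RNA than wild type. That difference is therefore a description here and carries no test. All 3 genes were among the 22749 that passed the filter on low counts. Only one of the 4 groups, Srsf2P95H, played no part in the choice.

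Each library came from the marrow of one C57BL/6 mouse, with LSK cells purified on beads, and 4 libraries were made per genotype. The groups are called WT (wild type), Asxl1Tg (Asxl1Y588XTg, a transgene for a shortened Asxl1, a chromatin regulator), Srsf2P95H (Srsf2P95H/+, a substitution in 1 allele of a splicing factor) and DM (Asxl1Y588XTg;Srsf2P95H/+, both changes). The sources used here do not give the promoter of the transgene, the cells in which the Srsf2 allele is active, or the sex and age of the mice. The design text counts 3 DM mice, whereas the labels and the table hold 4. Reads of 100 bases in pairs gave 83.0 to 127.6 M (megacounts) per library, and values below are CPM (counts per megacount after TMM scaling) unless stated.

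The primary cilium is a single antenna-like projection of the cell surface in which many vertebrate cells receive Hedgehog signals. When a Hedgehog ligand binds its receptor Ptch1, Smo moves into the cilium and relays the signal to the Gli transcription factors. Evc and Evc2 form a membrane-bound complex near the ciliary base that binds Smo and passes the signal on, and loss of either gene causes Ellis-van Creveld syndrome. Dzip1l sits at the basal body and transition zone, the gate of the cilium, and its mutation causes recessive polycystic kidney disease.

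Evc and Evc2 lie head to head on chromosome 5, Evc on the minus strand at 37289098-37336894 and Evc2 on the plus strand at 37338499-37425055 (GRCm38, GENCODE M21). The genes are 1604 bases apart, and their RefSeq start sites 1597 bases. Dzip1l lies on the plus strand of chromosome 9 at 99629496-99669256. The RefSeq windows around the start sites (250 bases before to 50 after, GRCm38.p6) are shown because the neighbours Evc and Evc2 moved together whereas Dzip1l lies on another chromosome. The windows are chr5:37336832-37337131 on the minus strand, chr5:37338228-37338527 on the plus strand and chr9:99629281-99629580 on the plus strand. Capitals mark matches to the motifs searched.
Evc: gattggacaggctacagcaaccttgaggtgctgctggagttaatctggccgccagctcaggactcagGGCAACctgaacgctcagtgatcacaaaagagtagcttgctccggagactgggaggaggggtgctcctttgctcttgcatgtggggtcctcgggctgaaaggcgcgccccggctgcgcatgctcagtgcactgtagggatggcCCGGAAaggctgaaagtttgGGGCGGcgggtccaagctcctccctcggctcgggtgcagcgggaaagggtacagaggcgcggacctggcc
Evc2: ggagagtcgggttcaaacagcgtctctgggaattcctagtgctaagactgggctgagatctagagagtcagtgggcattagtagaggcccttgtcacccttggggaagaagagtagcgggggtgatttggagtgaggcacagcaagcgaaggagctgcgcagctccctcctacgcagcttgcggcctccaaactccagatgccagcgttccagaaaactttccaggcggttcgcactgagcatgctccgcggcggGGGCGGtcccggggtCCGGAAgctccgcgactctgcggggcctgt
Dzip1l: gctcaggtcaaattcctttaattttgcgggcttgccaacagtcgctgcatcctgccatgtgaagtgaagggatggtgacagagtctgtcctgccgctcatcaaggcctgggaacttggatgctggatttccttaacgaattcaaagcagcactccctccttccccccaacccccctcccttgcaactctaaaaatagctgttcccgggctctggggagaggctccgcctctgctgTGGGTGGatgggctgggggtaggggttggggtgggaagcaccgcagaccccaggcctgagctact

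The Evc and Evc2 windows each held 1 ETS core (CCGGAA) and 1 GC box (GGGCGG), and Evc alone held the RFX half-site GTTGCC, on the other strand. Their ETS cores lay at positions -40 and 20 from the start site. The Dzip1l window held 1 GLI core (CCACCCA), on the other strand at -15, and neither an ETS core nor a GC box. An overlapping second RefSeq window of Dzip1l, which starts 47 bases downstream, held the same GLI match. None of the 4 windows held the RUNX letters TGTGGT. None held the letters AGATAA, bound by blood cell zinc finger factors. None held a TATA box, searched as TATAAA. Both strands were searched, and no match overlapped another. Of 32851 windows of the same length in all genes, 14.9% held the ETS core, 35.7% the GC box, 12.5% the RFX half-site and 9.30% the GLI core. CpG pairs numbered 16 in the Evc window, 19 in Evc2 and 7 in the first window of Dzip1l, against a median of 7 over all windows.

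Evc RNA was scarce in WT and with the Srsf2 allele alone, and far more abundant in all 8 libraries with the transgene. WT 1 to WT 4 were at 3.07, 1.22, 1.36 and 1.40 CPM. Srsf2P95H libraries were at 5.12, 2.39, 3.50 and 3.83. The 2 sets overlapped through WT 1 alone, the highest WT library. Asxl1Tg libraries were at 31.6, 29.9, 41.9 and 43.4, and DM libraries at 32.2, 29.9, 30.7 and 23.3. These last 2 groups overlapped, and all of their libraries lay above every library without the transgene. The group order was WT (mean 1.77, SD 0.874, n = 4), Srsf2P95H (3.71, SD 1.12), DM (29.05, SD 3.96) and Asxl1Tg (36.7, SD 6.92).

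Evc2, the partner of Evc, followed the same order. WT libraries were at 4.96, 1.38, 1.90 and 1.58 CPM, and Srsf2P95H libraries at 4.95, 3.54, 3.72 and 3.76. WT 1 exceeded all 4 Srsf2P95H libraries, whereas the other 3 WT libraries lay below all of them. Asxl1Tg libraries were at 32.9, 28.8, 39.3 and 40.7, and DM libraries at 30.1, 27.9, 27.5 and 20.3. The group means were 2.45 (SD 1.69, n = 4) in WT, 3.99 (SD 0.645) in Srsf2P95H, 26.4 (SD 4.24) in DM and 35.4 (SD 5.57) in Asxl1Tg.

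Dzip1l stood near the limit of detection in WT, with 34, 2, 11 and 18 counts in WT 1 to WT 4. These are 0.393, 0.0240, 0.0862 and 0.163 CPM. For WT 2 the exact 95% Poisson interval ran from 0.242 to 7.22 counts, which covers counting error only. Srsf2P95H libraries were at 0.510, 0.471, 0.779 and 0.330 CPM, and WT 1 again fell among them. Asxl1Tg libraries were at 2.85, 3.26, 4.02 and 2.29, and DM libraries at 4.16, 4.23, 3.82 and 3.12. Here DM (mean 3.83, SD 0.508, n = 4) stood above Asxl1Tg (3.10, SD 0.728), and the 2 groups overlapped. Srsf2P95H averaged 0.523 (SD 0.188) and WT 0.166 (SD 0.161).

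**Figure D1:**
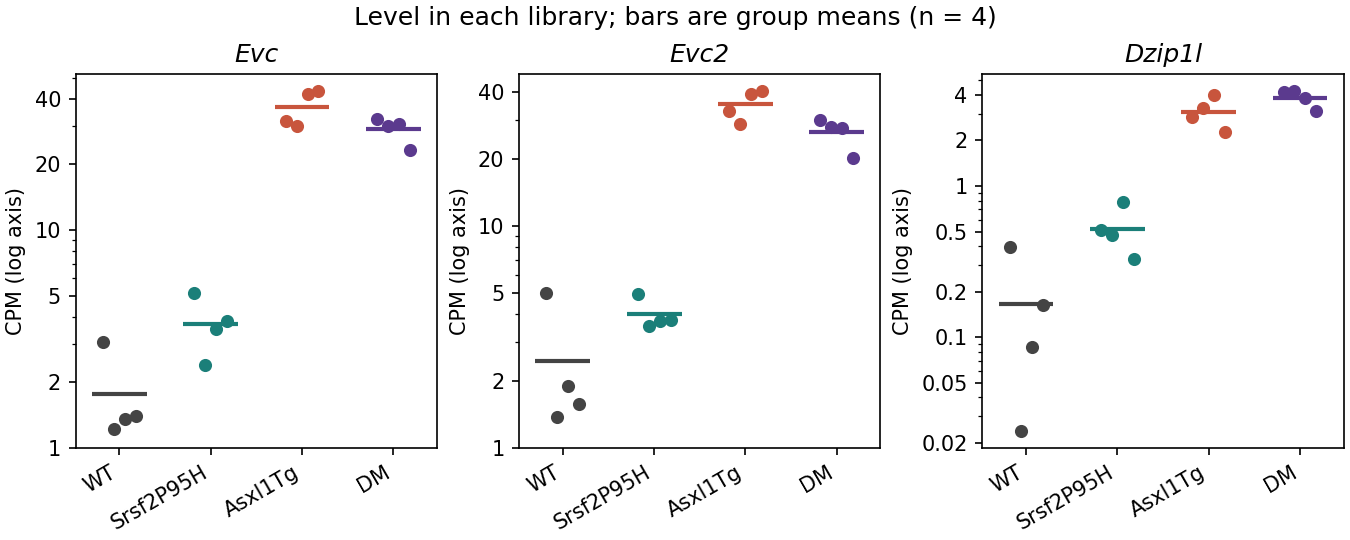
Level of Evc, Evc2 and Dzip1l in each of 16 libraries, in CPM on log axes, with 1 point per mouse and a bar at the mean of each group (n = 4). The Asxl1Tg and DM points lie above every WT and Srsf2P95H point for each gene, and WT 1 is the highest WT point in all 3 panels.

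Per length of merged exons, Evc and Evc2 were of the same order and Dzip1l was far lower. Asxl1Tg means were 4.76 RPKM (CPM per kilobase of merged exons) for Evc, 6.07 for Evc2 and 0.389 for Dzip1l. In WT they were 0.229, 0.420 and 0.0208. Dzip1l with the transgene was thus near the level that Evc had without it.

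With the transgene alone, Evc was 20.8-fold above WT (log2 fold change 4.38, SE 0.31), Evc2 14.5-fold (3.86, SE 0.35) and Dzip1l 18.7-fold (4.23, SE 0.51). In DM the differences from WT were 4.04 (SE 0.30), 3.43 (SE 0.34) and 4.53 (SE 0.52) on the log2 scale. Both comparisons share the WT libraries. No member's transgenic libraries overlapped WT, which held for 3.7% of tested genes in Asxl1Tg and 9.28% in DM in the upward direction, and 1.12% and 4.65% passed the test upward. The genes were chosen on these contrasts, so nothing is read from those shares. WT 1 lowered the differences: without it they were 4.45 in Asxl1Tg and 4.03 in DM for Evc2, and 5.04 and 5.34 for Dzip1l. With limma-voom and quality weights the Dzip1l differences were 5.08 and 5.45.

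On the log2 scale, the transgene's fitted difference was smaller on the background of the Srsf2 allele. For Dzip1l, with 2 to 34 counts in WT, this order depended on the scale. Its mean rose from 0.166 CPM in WT to 3.10 in Asxl1Tg, and by more CPM from 0.523 in Srsf2P95H to 3.83 in DM. DM exceeded Srsf2P95H by 2.97 (SE 0.28) for Evc, 2.73 (SE 0.33) for Evc2 and 2.87 (SE 0.47) for Dzip1l on the log2 scale. The difference between the transgene's effects with and without the Srsf2 allele was -1.41 (SE 0.38), -1.13 (SE 0.44) and -1.36 (SE 0.65) in that order. The 95% intervals were -2.22 to -0.60, -2.07 to -0.19 and -2.73 to 0.02, and only that of Dzip1l spanned both signs. These values rest on libraries used in the choice and are given without a test. Without WT 1 the difference between the effects became -1.72 for Evc2 and -2.17 for Dzip1l, since the baseline without either mutation was then lower.

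**Figure D2:**
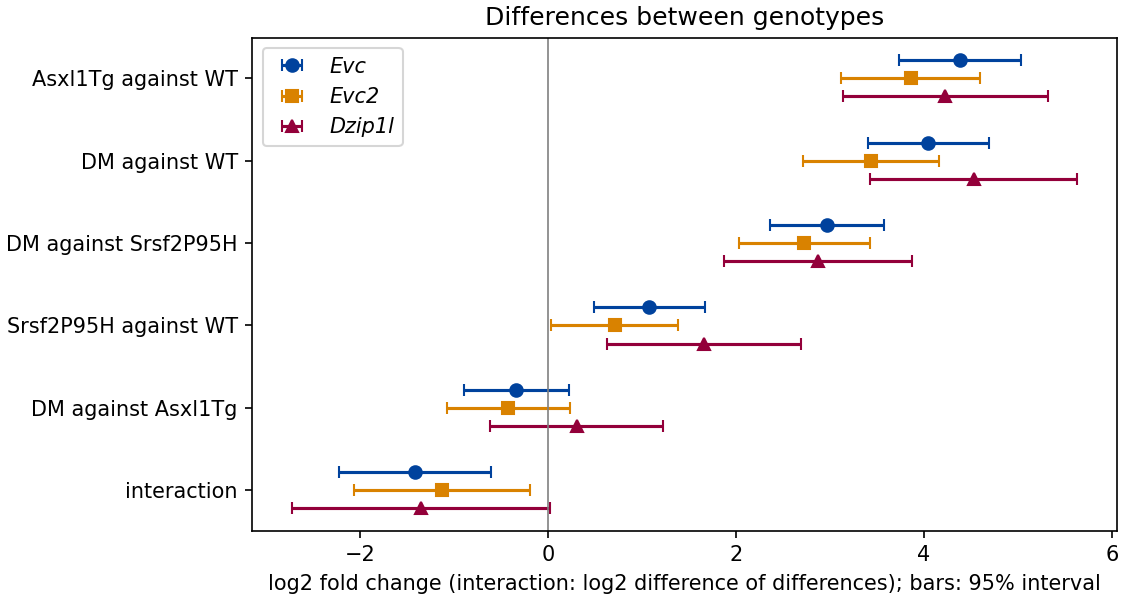
Log2 fold changes of Evc, Evc2 and Dzip1l in 5 comparisons and the interaction (DM - Asxl1Tg - Srsf2P95H + WT), with 95% intervals of the edgeR fit. Values against WT or Srsf2P95H with the transgene lie between 2.73 and 4.53, those of Srsf2P95H against WT between 0.71 and 1.66, and those of DM against Asxl1Tg between -0.42 and 0.30.

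For these genes the comparison left for a test was Srsf2P95H against WT, which was free of the choice on the Srsf2P95H side only. All 3 were higher in Srsf2P95H than in WT by the fitted value, and none passed the adjusted threshold of 0.05 over all genes with edgeR's quasi-likelihood test. Evc differed by 1.08 on the log2 scale (95% interval 0.49 to 1.67, adjusted p = 0.0580). Evc2 differed by 0.71 (0.03 to 1.38, adjusted p = 0.180). Dzip1l differed by 1.66 (0.63 to 2.69, adjusted p = 0.0685). The WT libraries are those of the choice. Choosing rises over WT favours genes with low WT values, which also raises their fitted difference in Srsf2P95H. The adjusted p are therefore given without a conclusion. Of all tested genes, 0.506% passed in this comparison.

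These 3 calls turned on a few libraries and on the test. Without WT 1 every member passed, Evc at 1.48 (adjusted p = 0.00382), Evc2 at 1.30 (adjusted p = 0.00210) and Dzip1l at 2.47 (adjusted p = 0.00744). WT 1 was the highest WT library for each gene, so leaving it out raises these differences. Evc also passed without Srsf2P95H 2 (1.24, adjusted p = 0.0311) and without Asxl1Tg 2 (1.08, adjusted p = 0.0463), and with the replicate number as a block (1.10, adjusted p = 0.0331). DESeq2 called Evc (adjusted p = 0.00319) and Dzip1l (adjusted p = 0.00399), as did limma-voom (0.0363 and 0.0312). Over 26 alternatives, Evc passed in 6 (adjusted p = 0.00319 to 0.183), Dzip1l in 3 (0.00399 to 0.183) and Evc2 in 1 (0.00210 to 0.397).

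WT 1 differed from the other WT libraries in more than these genes. Xist, which silences one X chromosome in female cells, ran from 1566 to 2312 CPM in 5 mice, namely DM 1, Srsf2P95H 2, Srsf2P95H 3, Asxl1Tg 3 and WT 1. The remaining 11 libraries were at 0.384 to 2.11. Among the low-Xist libraries, Evc ran from 1.22 to 1.40 CPM in 3 WT mice and from 3.83 to 5.12 in 2 Srsf2P95H mice. Evc2 ran from 1.38 to 1.90 and from 3.76 to 4.95, and Dzip1l from 0.0240 to 0.163 and from 0.330 to 0.510. These low-Xist groups did not overlap for any of the 3 genes, which also held in the upward direction for 21.7% of all tested genes, and the split leaves out WT 1, the library behind the overlap of the full groups.

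Among the high-Xist libraries the order did not hold for every gene. Evc was at 3.07 CPM in the lone WT mouse and at 2.39 and 3.50 in the 2 Srsf2P95H mice. Evc2 was at 4.96 in WT against 3.54 and 3.72, the opposite direction. Dzip1l was at 0.393 against 0.471 and 0.779. One WT mouse gives no estimate of spread. With the Xist split as a covariate the differences of Srsf2P95H from WT were 1.08 (adjusted p = 0.0724), 0.72 (adjusted p = 0.152) and 1.59 (adjusted p = 0.0724). With the transgene, the high-Xist libraries Asxl1Tg 3 and DM 1 were at 41.9 and 32.2 CPM for Evc, within or just above the range of their low-Xist group mates (29.9 to 43.4 and 23.3 to 30.7).

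Collagen transcripts, defining markers of stromal cells, also varied between the mice. In WT 1, Col1a1 reached 10.7 CPM and Col1a2 18.4, while WT 2 to WT 4 held 0.102 to 2.63 and 1.86 to 3.42. Of the 12 stromal and mesenchymal markers, however, WT 1 was the highest WT library for 3, WT 3 for 2 and WT 4 for 7, such as Cxcl12 (7.65 CPM in WT 4, 3.09 in WT 1). The summed level of the list was lower in WT 1 (245 CPM) than in any other WT library. WT 1 was the lowest for 2 markers, Runx2 (148 CPM, others 168 to 187) and Pdgfrb (63.2, others 84.0 to 114). These carry most of the sum, which therefore does not rank the libraries for the other markers. In Asxl1Tg, Col1a1 ran from 1.81 CPM in library 1 to 50.4 in library 3, while Evc was at 31.6 and 41.9 in the same libraries. Srsf2P95H 4 held the most Col1a1 of all 16 libraries (112 CPM), with Evc at 3.83. DM 2 held 1.16 CPM of Col1a1, with Evc at 29.9. The relation of Col1a1 to Evc was not tested. Over these 12 markers, all above 0 in each group, the summed level of WT libraries was 245 to 303 CPM, that of Asxl1Tg 196 to 262, that of Srsf2P95H 204 to 369 and that of DM 190 to 234. Most of that sum was Runx2 and Pdgfrb. In bulk RNA, a change in the number of cells of a type cannot be told apart from a change in RNA per cell.

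Markers of the labelled cells and of ciliated epithelium were checked the same way. The 8 LSK markers, Kit and Ly6a (Sca-1) among them, summed to 2723 to 3559 CPM in WT libraries, 2238 to 2788 in Asxl1Tg, 2544 to 3063 in Srsf2P95H and 2816 to 3332 in DM. The Asxl1Tg and DM sums did not overlap, and the part of this in the comparison of these groups was not tested. Of the 8 markers, 2 were called in DM against WT and none in the other comparisons with WT. Of all genes, 9.39% passed in DM, 1.88% in Asxl1Tg and 0.506% in Srsf2P95H. In DM, Flt3, a receptor of multipotent progenitors, fell by 0.95 on the log2 scale (SE 0.23, adjusted p = 0.0239). Slamf1 (CD150), a marker of stem cells, rose by 1.03 (SE 0.22, adjusted p = 0.0121). In Asxl1Tg and Srsf2P95H the fitted signs were the same, with Flt3 at -0.87 and -0.73 (adjusted p = 0.0625 and 0.0791 with edgeR). Slamf1 was at 0.59 and 0.65 (adjusted p = 0.133 and 0.0894 with edgeR). Flt3 ran from 319 to 705 CPM in WT, 256 to 416 in Asxl1Tg, 297 to 407 in Srsf2P95H and 203 to 337 in DM, with WT 1 the lowest WT library. Slamf1 ran from 4.03 to 5.85, 5.33 to 8.81, 5.08 to 9.41 and 7.59 to 13.1 in that order. The part of these shifts in the levels of Evc, Evc2 and Dzip1l was not tested. The 6 markers of multiciliated cells, such as Foxj1, summed to 1.66 to 2.47 CPM among WT libraries, 1.53 to 1.97 among Asxl1Tg, 1.88 to 2.45 among Srsf2P95H and 1.83 to 2.12 among DM libraries. The sum was thus no higher in the transgenic groups. Most of it was Rsph1 and Ccdc39, and 3 of the 6 markers passed the filter on low counts. Near the limit of detection, Tekt1 ran from 0 to 0.0115 CPM in WT, 0 to 0.0584 in Asxl1Tg and 0.00912 to 0.206 in DM. Foxj1 ran from 0.0724 to 0.228 in WT, 0.115 to 0.271 in Asxl1Tg and 0.0720 to 0.0821 in DM. Eosinophil markers ranged most among the WT libraries, from 41.0 CPM in WT 3 to 1420 in WT 4. WT 4 was the highest WT library for 6 of 6 eosinophil, 6 of 6 B lineage and 5 of 6 neutrophil markers. Pax5 of the B lineage was at 27.2 CPM in WT 4 and 0.162 to 4.67 in the other WT libraries. The part of this in the comparisons with WT was not tested.

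Asxl1 and Srsf2, the altered genes themselves, gave no such split. WT libraries held 213 to 227 CPM of Asxl1, Asxl1Tg libraries 218 to 235, Srsf2P95H libraries 206 to 234 and DM libraries 218 to 236. For Srsf2 the ranges were 173 to 237, 230 to 294, 186 to 247 and 180 to 230 in that order. A point substitution need not alter the count, and transgene reads are counted only where they map to Asxl1, so these levels do not check the labels.

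Between Asxl1Tg and DM the 95% intervals of the fitted differences spanned both signs for all 3 genes. Both groups were used in the choice, which asked for a large rise in each and so favours a small difference between them. The adjusted p below are therefore given without a conclusion. From Asxl1Tg to DM, Evc differed by -0.34 (95% interval -0.90 to 0.22, adjusted p = 0.546) and Evc2 by -0.42 (-1.07 to 0.23, adjusted p = 0.511). Dzip1l differed by 0.30 (-0.62 to 1.23, adjusted p = 0.770). The fitted signs thus differed between the Evc pair and Dzip1l, and the groups overlapped for each gene. None was called in any of 26 alternatives (adjusted p = 0.100 to 0.905), while 1.08% of all genes passed in this comparison. The intervals leave room for a fall of Evc2 to 0.475-fold or an increase of Dzip1l to 2.34-fold.

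Evc and Evc2 tracked each other from mouse to mouse in both sets of libraries. In the 8 libraries with the transgene, Pearson's r of log2 CPM was 0.974 (exact permutation test, two-sided, adjusted p = 0.00804 over 6 relations) and Spearman's rho 0.881 (adjusted p = 0.0435). In the 8 without it, r was 0.933 (adjusted p = 0.0190, exact permutation) and rho 0.833 (adjusted p = 0.0461). Without the 2 libraries farthest from the median of Evc, r was 0.953 with the transgene and 0.875 without it. Deviations from the group means gave 0.969 and 0.895, which were not tested. The permutations ran across both genotypes of each set.

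Dzip1l kept step with the pair in the libraries without the transgene, taken across WT and Srsf2P95H. In those with it no relation was detected, and the difference between the sets was not tested. Without the transgene, r was 0.845 with Evc and 0.870 with Evc2 (adjusted p = 0.0190 for each, exact permutation test). Spearman's rho was 0.786 (adjusted p = 0.0559) and 0.667 (adjusted p = 0.125, both by exact permutation). These r include the difference between WT and Srsf2P95H, and so do their p, since libraries were permuted across both groups. Within groups r was 0.643 and 0.763, which was not tested. Without WT 2 and WT 3, r with Evc was 0.703, and without WT 2 and WT 4, r with Evc2 was 0.799. With the transgene, r was -0.203 with Evc and -0.247 with Evc2 (adjusted p = 0.600 for each, exact permutation test), and rho was -0.119 (adjusted p = 0.793) and -0.286 (adjusted p = 0.601, exact permutation). Asxl1Tg 4 shows the contrast, as the highest library for Evc and Evc2 and the lowest transgenic library for Dzip1l. Within groups the 2 signs turned (0.208 and 0.252). Without Asxl1Tg 3 and Asxl1Tg 4, r with Evc was 0.350, and without Asxl1Tg 4 and DM 4, r with Evc2 was -0.0776.

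**Figure D3:**
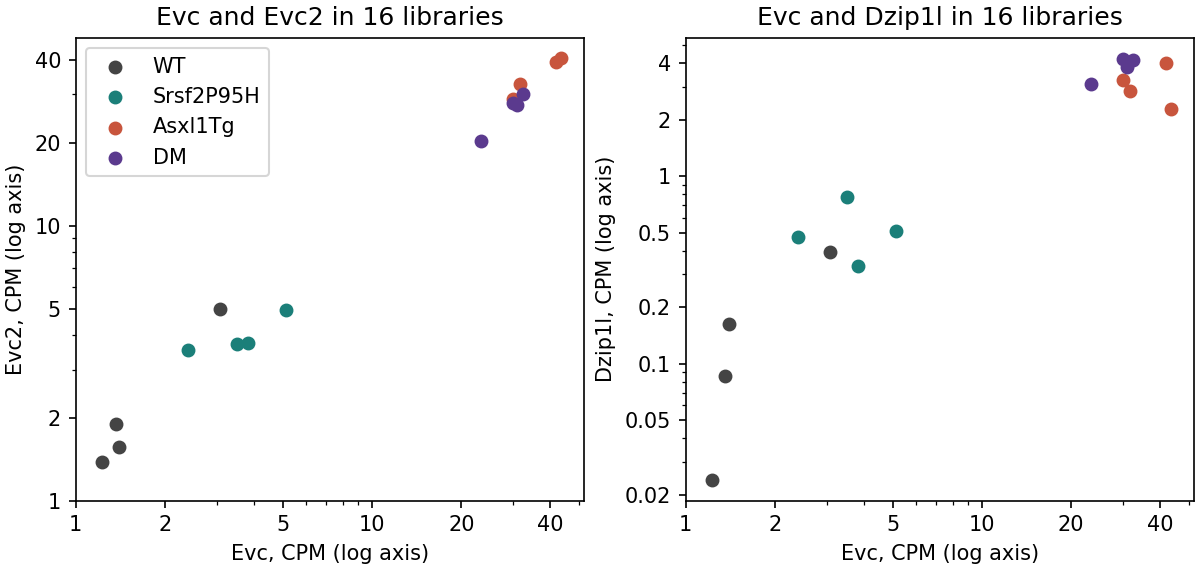
Evc2 (left) and Dzip1l (right) against Evc in 16 libraries, in CPM on log axes, with 1 point per mouse coloured by genotype. Evc2 follows Evc within the transgenic and the other libraries (r = 0.974 and 0.933). For Dzip1l, r with Evc is 0.845 among WT and Srsf2P95H libraries (0.643 within groups). Among transgenic libraries it is -0.203 (0.208 within groups), and the difference between the sets was not tested.

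The balance within the pair differed between the groups. The ratio of Evc to Evc2 counts averaged 0.779 (SD 0.134, n = 4) in WT, 0.917 (SD 0.166) in Srsf2P95H, 1.03 (SD 0.0494) in Asxl1Tg and 1.10 (SD 0.0372) in DM. WT libraries ran from 0.619 to 0.891 and Asxl1Tg from 0.961 to 1.07, without overlap. Srsf2P95H ran from 0.675 to 1.03 and overlapped both. Per length of merged exons the means were 0.590, 0.695, 0.782 and 0.835, and per length of the longest transcripts 0.737, 0.868, 0.977 and 1.04, so whether Evc exceeds Evc2 depends on the gene model. The ratio rests on the contrast of the choice and was not tested.

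Other genes with the same profile over the 16 libraries were ranked by Pearson's r of log2 CPM among 12165 genes with a mean of at least 1 CPM and no predicted name. Evc2 came first for Evc (r = 0.995), followed by Npdc1 (0.960), the histone variant gene Macroh2a2 (0.955), Arfgef3 (0.954) and Dzip1l (0.951). For Evc2, Evc was followed by Arfgef3 (0.954), Dzip1l (0.952), Lama5, a laminin chain of basement membranes (0.951), and Npdc1 (0.949). For Dzip1l the order was Sh3pxd2b, a scaffold of podosomes (0.956), Evc2, the magnesium channel gene Trpm6 (0.952), Evc and the desmosomal cadherin gene Dsg2 (0.936). These r are descriptions. All 16 points share their genotype groups, so any gene that differs with the transgene scores high.

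The other genes ranked by r had smaller differences than the members, which were chosen for large ones. Macroh2a2 averaged 5.75 CPM in WT and 17.8 in Asxl1Tg, Arfgef3 5.30 and 16.9, and Lama5 9.04 and 29.5. Sh3pxd2b averaged 22.1 and 49.1, and Trpm6 0.612 and 2.97. With the root mean square difference of centred values in place of r, which takes the size of the change into account, 2 of the 5 genes nearest to Evc, 2 of the 5 nearest to Evc2 and 3 of the 5 nearest to Dzip1l remained. Those that remained were the other members alone for Evc and Evc2, and the other members and Trpm6 for Dzip1l. The genes that then entered were Sidt1, Spats2, Pxdn and Serpinh1. Among them Pxdn, a peroxidase of the extracellular matrix, differed by as much as the members. It averaged 0.177 CPM in WT, 3.37 in Asxl1Tg, 0.383 with the Srsf2 allele and 2.61 in DM, a log2 difference from WT of 4.26 in Asxl1Tg and 3.89 in DM.

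Around the Evc pair, no tested gene outside the span of the 2 genes differed from WT as much as they did in Asxl1Tg or DM. The 2 genes were chosen for large differences there, so this order follows from the choice. In Srsf2P95H against WT, Gm1043 differed by more than either (-1.90, SE 0.51, adjusted p = 0.0587). Of 46 further annotated genes within 1 Mb, 23 were tested. The nearest tested gene outside the pair was Gm1043, at -59.6 kb (negative distances lie toward lower coordinates) with 0.958 ± 0.417 CPM in WT and 0.359 ± 0.154 in Asxl1Tg (SD, n = 4; log2 fold change -1.42, SE 0.50, adjusted p = 0.119). On the other side it was Stx18, a syntaxin of the endoplasmic reticulum, 614 kb away (0.09, SE 0.10, adjusted p = 0.642). Stk32b, 21.8 kb beyond Evc2, had 0 to 8 counts per library.

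Crmp1 overlaps the 3′ end of Evc by 3036 bases on the other strand, shares no exonic base with it in this annotation, and had 0 to 6 counts. Jakmip1, at -138 kb, was at 5.09 CPM in WT and 2.90 in Asxl1Tg (log2 fold change -0.81, SE 0.33, adjusted p = 0.167). The pseudogene Gm15732 lies in an intron of Evc2 on the other strand. It had 2, 0, 1 and 0 counts in WT, 51, 21, 18 and 29 in Asxl1Tg, 1, 0, 4 and 3 in Srsf2P95H, and 7, 22, 29 and 11 in DM. It was called higher in Asxl1Tg (adjusted p = 0.00567) and in DM (adjusted p = 0.0117). The strand setting of the counting is not given in the sources used here, so reads of Gm15732 and of unspliced Evc2 RNA cannot be told apart.

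The one other gene near the pair called in both transgenic groups was Nsg1, a neuronal endosomal protein gene 712 kb away. Its libraries were at 3.82, 3.10, 4.79 and 2.47 CPM in WT and 8.30, 10.5, 15.7 and 12.7 in Asxl1Tg, without overlap. It rose by 1.73 (SE 0.26, adjusted p = 0.00277) in Asxl1Tg and 1.23 (SE 0.25, adjusted p = 0.0111) in DM on the log2 scale. Man2b2, a lysosomal mannosidase gene, rose by 0.38 (SE 0.08, adjusted p = 0.0408) in Srsf2P95H and 0.55 (SE 0.08, adjusted p = 0.00145) in DM. Gm1043 (-1.66, adjusted p = 0.0474) and Gm42858 (-1.10, adjusted p = 0.0461) fell in DM, and both calls were lost without any one of WT 2, WT 3, Asxl1Tg 4, Srsf2P95H 3, Srsf2P95H 4, DM 1, DM 2 or DM 4 and some further libraries. Tmem128 was higher in DM than in Asxl1Tg by 0.43 (SE 0.09, adjusted p = 0.0418).

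Around Dzip1l, 22 of 56 genes within 1 Mb were tested. The nearest were Dbr1, the lariat debranching enzyme gene, at -45.0 kb (log2 fold change in Asxl1Tg against WT 0.11, SE 0.09, adjusted p = 0.509), and the cytokine receptor gene Il20rb, 788 kb away (-0.50, SE 0.25, adjusted p = 0.258). The immediate neighbours A4gnt and Cldn18 had 0 counts in every library. Cep70, a centrosomal protein gene at -329 kb, fell in Asxl1Tg by 0.36 on the log2 scale (SE 0.09, adjusted p = 0.0485), a call lost without any single library except WT 1, Asxl1Tg 2 or Srsf2P95H 2. No other gene there passed in any comparison with WT.

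Over both loci, 3 of 45 neighbours were called in Asxl1Tg (2 higher, 1 lower), 1 in Srsf2P95H and 5 in DM (3 higher, 2 lower). Over all genes 1.88%, 0.506% and 9.39% passed in these comparisons. The median of the neighbours was -0.16, -0.08 and -0.18, against -0.04, -0.05 and -0.02 over all genes tested. Nsg1 and Gm15732 stayed called wherever they could be fitted. The count in Srsf2P95H fell to 0 without any one of WT 2, WT 3, WT 4, Asxl1Tg 3, Asxl1Tg 4, Srsf2P95H 1, Srsf2P95H 3, Srsf2P95H 4, DM 2 or DM 4, and reached 4 without Asxl1Tg 2, 3 without WT 1 and 2 without Srsf2P95H 2. That in Asxl1Tg rose to 7 without Asxl1Tg 2, and that in DM was 3 without any one of WT 2, WT 3, Asxl1Tg 4, Srsf2P95H 3, Srsf2P95H 4, DM 1, DM 2 or DM 4.

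**Figure D4:**
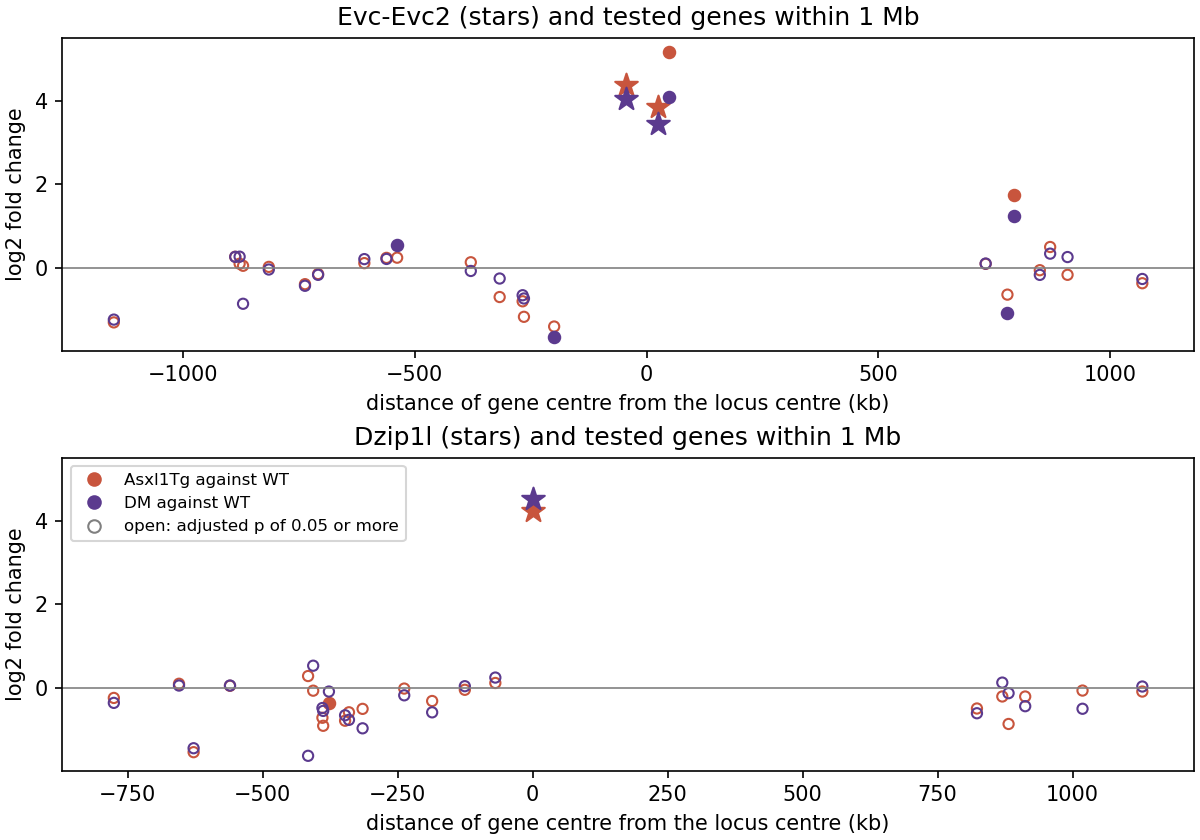
Log2 fold change of tested genes within 1 Mb of the Evc-Evc2 pair (top) and of Dzip1l (bottom) against the distance of each gene's centre from the centre of the locus in kb, for Asxl1Tg and DM against WT. Stars are the members, filled circles genes at an adjusted p under 0.05 and open circles the rest. The members, chosen for these differences, stand at 3.43 to 4.53. The intronic pseudogene Gm15732 beside them is at 5.17 and 4.09, and the other neighbours are at 1.73 or less.

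In the rest of the cilium and Hedgehog machinery, no tested gene differed from WT as much as the members in Asxl1Tg or DM. The members were chosen for large differences there, so this order follows from the choice. Some of the other tested genes, such as Scube3, differed by more than Evc and Evc2 in Srsf2P95H against WT. Over 8 lists, 95 genes other than the members were tested. In Asxl1Tg 3 were called higher and 5 lower, against 1.12% and 0.76% of all genes. In Srsf2P95H 0 and 4 were called, against 0.264% and 0.242%, and in DM 5 and 12, against 4.65% and 4.73%. From Asxl1Tg to DM none was called. The medians were -0.09, -0.08, -0.02 and 0.06, against -0.04, -0.05, -0.02 and -0.0036 over all genes. For the count of 0 in DM against Asxl1Tg, 21 of the 95 had an unadjusted p under 0.05 with edgeR, and DESeq2 called 8 and limma-voom 7.

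The 2 other proteins linked to the EvC complex behaved unlike Evc and Evc2. Efcab7, which helps to tether the complex at the ciliary base, averaged 3.91 CPM in WT, against 3.34 with the transgene, 3.78 with the Srsf2 allele and 4.21 with both, and was called in none of the comparisons. Iqce, its partner in that anchoring, was at 46.4 ± 5.79 CPM in WT and 36.5 ± 2.57 in DM (SD, n = 4), a fall of 0.35 on the log2 scale (SE 0.09, adjusted p = 0.0237) whose call was lost without WT 3, WT 4, DM 1, DM 2 or DM 4. In Asxl1Tg it was at 44.96 CPM (adjusted p = 0.796).

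Of the Hedgehog ligands, Shh and Dhh did not pass the filter, and Ihh averaged 0.07 CPM in WT and 0.07 in Asxl1Tg. Scube3, a secreted protein of a family that helps to release ligand, was at 26.7 ± 5.28 CPM in WT. It fell to 9.12 ± 3.79 in Srsf2P95H (log2 fold change -1.55, SE 0.25, adjusted p = 0.0182) and 12.3 ± 2.99 in DM (-1.11, SE 0.25, adjusted p = 0.0164). The first call did not hold without Srsf2P95H 1, Srsf2P95H 4, WT 3 or WT 4, and the second without WT 3 or DM 2. Hhat and Disp1, which attach lipid to the ligand and release it, were not called.

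Among receptors, Smo, the protein that the Evc pair binds, was higher with the transgene. Its WT libraries were at 96.9, 90.7, 101 and 85.6 CPM and its Asxl1Tg libraries at 126, 106, 124 and 132, without overlap (log2 fold change 0.38, SE 0.08, adjusted p = 0.0189). DM averaged 120 ± 6.09 CPM (0.36, SE 0.08, adjusted p = 0.0125). In Asxl1Tg the call of Smo was lost without WT 2, WT 4 or Asxl1Tg 4. The ligand co-receptor gene Boc rose in DM from 1.82 ± 0.566 to 3.24 ± 0.714 (0.83, SE 0.25, adjusted p = 0.0482), with groups that overlapped, and that call was lost without any single library except WT 1, Asxl1Tg 2, Srsf2P95H 1 or Srsf2P95H 2. Ptch1 was at 74.6 CPM in WT and 75.2 in Asxl1Tg.

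Of 13 signal transducers, Gli2, an effector of the pathway, rose most. Its WT libraries were at 0.139, 0.108, 0.055 and 0.054 CPM, its Asxl1Tg libraries at 0.534, 0.252, 0.606 and 0.477, and its DM libraries at 0.369, 0.410, 0.747 and 0.247. Srsf2P95H libraries were at 0.040, 0.046, 0.172 and 0.052 and overlapped WT. The log2 fold change was 2.41 in Asxl1Tg (SE 0.51, adjusted p = 0.0244) and 2.33 in DM (SE 0.51, adjusted p = 0.0142), at levels under 1 CPM in every library. In Asxl1Tg that call was lost without any one of WT 2, WT 3, WT 4, Asxl1Tg 1, Asxl1Tg 3 or Asxl1Tg 4, and in DM without WT 3.

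Stk36 (Fused), a kinase of motile cilia and of the pathway in flies, fell in all 3 mutant groups. From 1.66 ± 0.318 CPM in WT it was at 0.671 ± 0.141 in Asxl1Tg (log2 fold change -1.30, SE 0.26, adjusted p = 0.0182), 0.649 ± 0.199 in Srsf2P95H (-1.35, SE 0.26, adjusted p = 0.0379) and 0.924 ± 0.167 in DM (-0.84, SE 0.26, adjusted p = 0.0481). The call in Asxl1Tg was lost without WT 2, WT 3, WT 4 or Asxl1Tg 1. That in Srsf2P95H did not hold when DM 2, DM 4, Srsf2P95H 1, Srsf2P95H 3, Srsf2P95H 4, WT 2, WT 3 or WT 4 was left out. That in DM was lost without any single library except WT 1, Srsf2P95H 2, Srsf2P95H 4 or DM 3. The ciliary kinesin gene Kif7 fell in Srsf2P95H by 0.65 on the log2 scale (SE 0.13, adjusted p = 0.0379), a call lost without the same 8 libraries as that of Stk36 in Srsf2P95H. The other transducers, Sufu, Prkaca and Gsk3b among them, were not called.

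The transcriptional targets of the pathway gave 1 call in 8 tested genes, in DM against WT, where 9.39% of all genes passed. None was called in Asxl1Tg or Srsf2P95H against WT, where 1.88% and 0.506% of all genes passed. Bmp4 was at 0.281 ± 0.0553 CPM in WT and 0.724 ± 0.477 in DM (log2 fold change 1.36, SE 0.41, adjusted p = 0.0486), with groups that overlapped. The call was lost without any single library except Asxl1Tg 2 or DM 1. Gli1, the most direct reporter of Hedgehog signalling, averaged 0.758 CPM without any mutation, 0.462 with the transgene, 0.291 with the Srsf2 allele and 0.348 with both. The WT mean rests on WT 4 (1.73 CPM), and without it was 0.434. The adjusted p of Gli1 was 0.611 in Asxl1Tg and 0.319 in DM. Ccnd1 was at 37.4 CPM in WT and 52.5 in Asxl1Tg (0.49, adjusted p = 0.0815).

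Dzip1, the paralogue of Dzip1l, went the other way. Its WT libraries were at 6.38, 7.88, 10.7 and 9.68 CPM and its Asxl1Tg libraries at 2.46, 6.27, 3.34 and 2.86, and it fell by 1.22 on the log2 scale (SE 0.30, adjusted p = 0.0486). In DM it was at 5.09 CPM (adjusted p = 0.0998). The Asxl1Tg call was fragile: it was lost without any single library except WT 1, Asxl1Tg 2, Srsf2P95H 1 or Srsf2P95H 2. In 26 transition zone genes, Dzip1 was the one call in Asxl1Tg, where 1.88% of all genes passed. In DM, Cc2d2a rose by 0.86 (SE 0.16, adjusted p = 0.00780), and Rpgrip1 fell (-1.09, SE 0.26, adjusted p = 0.0199). The Rpgrip1 call was lost without WT 3, WT 4, DM 1 or DM 2, whereas that of Cc2d2a held without any one library.

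Of 6 tested genes for other ciliary proteins of cystic kidney disease, Anks6 rose in Asxl1Tg by 1.06 on the log2 scale (SE 0.20, adjusted p = 0.0126), with 3.09 ± 0.402 CPM in WT and 6.43 ± 1.26 with the transgene (SD, n = 4). It averaged 1.76 in Srsf2P95H and 4.69 in DM (adjusted p = 0.0548 and 0.0595 against WT), and DM exceeded Srsf2P95H (adjusted p = 0.00498), a comparison in which 0.246% of all genes passed. Its call in Asxl1Tg was lost without Asxl1Tg 4. Pkd1 (polycystin-1) fell by 0.32 and the kinase gene Nek8 by 0.67 in DM on the log2 scale (adjusted p = 0.0393 and 0.0494). The Pkd1 call was lost without WT 2, WT 3, WT 4, DM 1, DM 2 or DM 4, and the Nek8 call without any single library except WT 1, Asxl1Tg 2, Srsf2P95H 1 or Srsf2P95H 2.

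The 33 intraflagellar transport and BBSome genes build the cilium and carry its cargo. Of all genes, 0.76% passed downward in Asxl1Tg, 0.242% in Srsf2P95H and 4.73% in DM. The 33 genes were called only downward. In Asxl1Tg these were Wdr19 (-0.57, adjusted p = 0.0410), Bbs2 (-0.50, adjusted p = 0.0419) and Lztfl1 (-0.73, adjusted p = 0.00820). In Srsf2P95H it was Wdr35 (-0.71, adjusted p = 0.0433). In DM, Ift81 (-0.85), Ift122 (-0.52), Ift172 (-0.24), Wdr19 (-0.54) and Lztfl1 (-0.54) fell (adjusted p = 0.0184 to 0.0456). Of these 9 calls, that of Lztfl1 in Asxl1Tg held without any one library. Without WT 3 the other 8 were lost, 7 of them also without WT 4 (not Ift122), and each was lost without other single libraries as well. The median of this list was -0.22 in Asxl1Tg, -0.10 in Srsf2P95H and -0.09 in DM.

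The number of list genes called moved with single libraries. In Asxl1Tg the 8 calls became 2 without WT 2, WT 4 or Asxl1Tg 4, 3 without Asxl1Tg 1, 4 without WT 3, 5 without DM 1, DM 2 or DM 4, 16 without WT 1 and 22 without Asxl1Tg 2. In Srsf2P95H the 4 calls became 0 without WT 3, WT 4, Srsf2P95H 1 or Srsf2P95H 4, 1 without WT 2, Srsf2P95H 3, DM 2 or DM 4, 11 without Asxl1Tg 2, 15 without Srsf2P95H 2 and 19 without WT 1. In DM the 17 calls became 4 without WT 3, 5 without DM 2, 6 without WT 4 or DM 4, 7 without DM 1 and 11 without WT 2. From Asxl1Tg to DM, 1 gene was called without WT 4, Asxl1Tg 2 or Asxl1Tg 3.

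**Figure D5:**
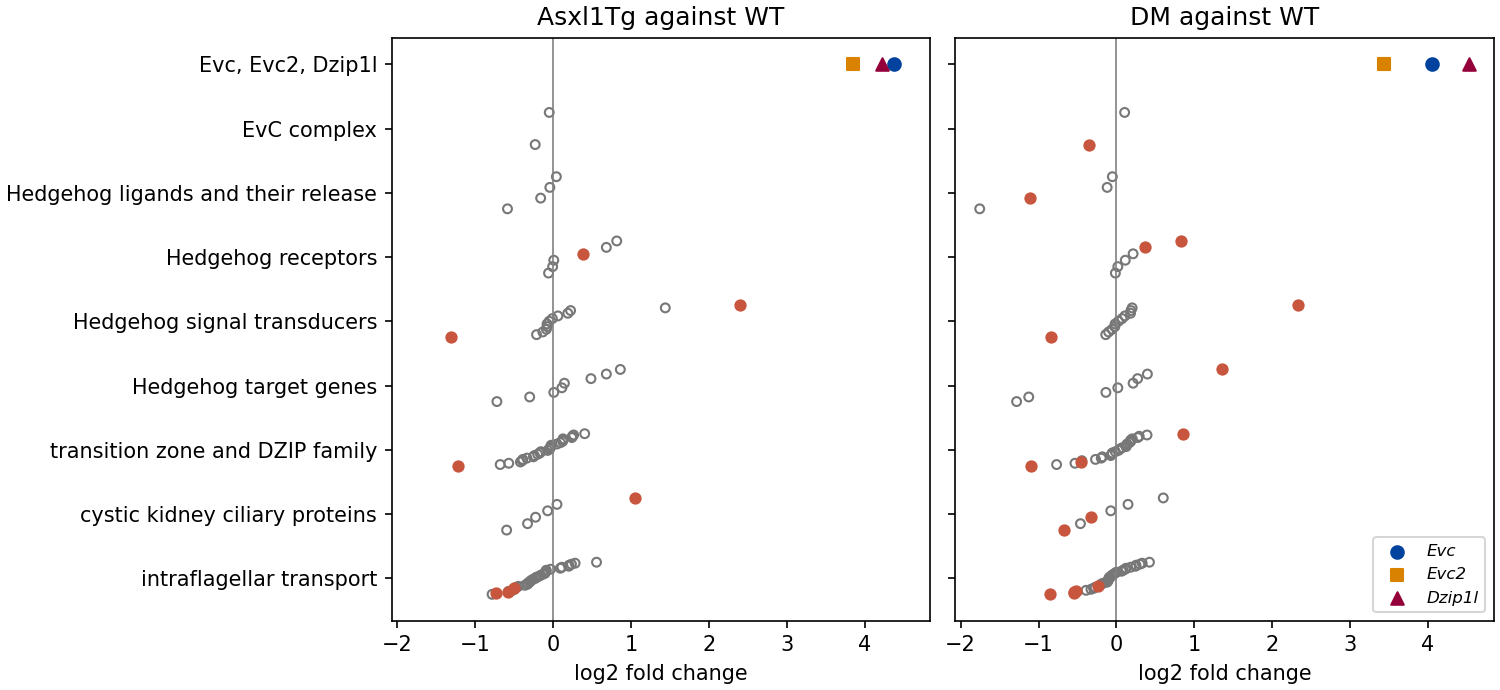
Log2 fold change of each tested gene of 8 cilium and Hedgehog lists in Asxl1Tg (left) and DM (right) against WT, with 1 circle per gene, filled at an adjusted p under 0.05, and Evc, Evc2 and Dzip1l in the top row. The highest list gene is Gli2 at 2.41 and 2.33, below the members at 3.43 to 4.53, which were chosen for these differences.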

How the data were processed

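The authors deposited raw read counts per gene symbol in 1 table. Per the submitters' processing notes, the build is mm10. The tools listed are HTSeq 0.11.2, STAR 2.7.0e, Trimmomatic 0.38 and FastQC. Which annotation release and strand setting were used is not given in the sources used here. The names of the Asxl1Tg columns are short forms, matched to that genotype because the other 3 were taken.

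Counts were fitted with edgeR 4.0.16 in R 4.3.3 (filterByExpr with a minimum count of 10, TMM, robust quasi-likelihood, all 16 libraries), and Benjamini-Hochberg adjustment ran over 22749 genes in each of 6 comparisons. Called genes have an adjusted p under 0.05. RPKM divides the CPM by merged exon length in GENCODE M21, which holds 53292 of the symbols. Total counts of 83.0 to 127.6 M per library set the precision, so that genes of few counts such as Dzip1l in WT have wide errors. No libraries were duplicates. The fit was tested on simulated data.

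The members and lists were chosen with earlier results of these data known. Named were the members, Asxl1, Srsf2, up to 10 called genes of each list (or up to 3 of its highest), the nearest and the called neighbours, and the 5 genes nearest in profile to each member. Other genes named, such as Jakmip1, Stk32b, Efcab7, Gli1 and Ccnd1, were chosen after their values were seen. One called list gene is counted but not reported here. Of the 10 marker lists, those not described above gave summed levels that overlapped between all groups. Alternatives were DESeq2 1.42.0, limma-voom (limma 3.58.1), other scaling and filters, the replicate block, an Xist covariate and left-out libraries. Replicate numbers were not used as pairs, since libraries with the same number correlated at -0.293 to 0.295 after subtraction of group means.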

Additional observations from a re-analysis of the deposited data

Results flagged for a closer look

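For the members, the genes called near them or in their pathway, and the genes nearest in profile (38 genes in 4 groups, 152 sets of 4 libraries), 10 sets held 1 library far from the other 3. Chance alone flags about 1 set in 20. WT 1 stood apart upward for 4 genes: Evc (3.07 CPM, others 1.22 to 1.40), Evc2 (4.96, others 1.38 to 1.90), Sh3pxd2b (30.3, others 18.7 to 20.4) and Trpm6 (1.37, others 0.324 to 0.398). Sh3pxd2b and Trpm6 are among the genes nearest in profile to Dzip1l, so these 4 are not independent. In Srsf2P95H, Evc2 was high in library 1 (4.95 CPM, others 3.54 to 3.76), Gli2 in library 3 (0.172, others 0.0400 to 0.0516), and Anks6 was low in library 1 (1.26, others 1.86 to 1.96). Rpgrip1 was high in Asxl1Tg 2 (12.5 CPM, others 7.33 to 8.10), Dsg2 in Asxl1Tg 3 (12.6, others 7.55 to 7.73) and Npdc1 in DM 3 (18.01, others 13.2 to 13.97). What sets these libraries apart was not tested.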

How the results depend on the processing

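Each result was recomputed under up to 26 alternatives. The fitted direction of every member held in each comparison under all of them. For Srsf2P95H against WT, Evc passed with the replicate block (1.10), DESeq2 (1.08) and limma-voom (1.27), and Dzip1l with DESeq2 (1.68) and limma-voom (2.54). Leaving out 1 library gave 0.87 to 1.48 for Evc, 0.52 to 1.30 for Evc2 and 1.32 to 2.47 for Dzip1l. The interaction ranged from -1.82 to -1.23 for Evc, -1.72 to -0.94 for Evc2 and -2.17 to -1.01 for Dzip1l (-2.16 with limma-voom). Leaving out 1 library gave 4.25 to 4.78, 3.66 to 4.45 and 3.88 to 5.04 in Asxl1Tg against WT, and 3.91 to 4.45, 3.24 to 4.03 and 4.19 to 5.34 in DM against WT. Pathway genes called in Asxl1Tg (8) numbered 13 with the replicate block, 26 with DESeq2, 16 with limma-voom, 0 with the compared groups only and 3 without WT 4 and Srsf2P95H 2, and 2 to 22 without 1 library. In Srsf2P95H (4) they numbered 14, 23, 16 and 0 under the first 4 of these, 9 with library size only, 2 with no filter, 9 with the stricter filter, 1 with the Xist covariate and 0 to 19 without 1 library. In DM (17) they numbered 27 with DESeq2, 29 with limma-voom, 11 with no filter, 10 without WT 4 and Srsf2P95H 2, and 4 to 21 without 1 library. From Asxl1Tg to DM (0) they numbered 8, 7, 2 with the Xist covariate, 1 without WT 4 and Srsf2P95H 2, and 0 to 1 without 1 library. Neighbours called numbered 5 with DESeq2 and 2 to 7 without 1 library in Asxl1Tg. In Srsf2P95H they numbered 2 with the replicate block, 5 with DESeq2, 3 with limma-voom, 0 with library size only, the compared groups only, the Xist covariate or without WT 4 and Srsf2P95H 2, and 0 to 4 without 1 library. In DM they numbered 9 with limma-voom, 3 with no filter, 2 with the stricter filter, 3 with the compared groups only, and 3 to 7 without 1 library. The r of Evc and Dzip1l within groups was 0.643 without the transgene. With it, r turned to 0.208 within groups and 0.350 without Asxl1Tg 3 and Asxl1Tg 4, and that of Evc2 and Dzip1l to 0.252 within groups. The cause of these changes was not tested. Replicate numbers did not pair the mice, since 3 of 16 libraries correlated best with one of their own number. Dzip1l in WT, at 2 to 34 counts, is limited by depth.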
